A study of Mus musculus with 30 samples.

Results

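Transcripts of 9 ADAMTS genes (Adamts1, Adamts4, Adamts5, Adamts7, Adamts8, Adamts10, Adamts12, Adamts14 and Adamts16) were followed through 30 mouse tumour libraries. The genes were taken by symbol from a table of 55471 genes, from a list drawn up with earlier results of these data known, and are 9 of the 19 ADAMTS protease genes in it. The tumours were grown from MC38, a mouse colon carcinoma line, injected under the skin of female C57BL/6 mice aged 6 to 8 weeks. The cells were wild type (WT) or carried loss-of-function mutations in B2m (B2mKO), the light chain of MHC class I, or in Jak1 (Jak1KO), a kinase of interferon and other cytokine receptors. Each mouse was given 100 µg of antibody into a vein on days 7, 10 and 13, either against the T cell checkpoint receptor PD-1 (aPD1) or as an isotype control (IgG1). About 50 mg of tumour was taken on day 14 and its RNA was sequenced. The 6 groups (B2mKO aPD1, Jak1KO aPD1, WT aPD1, B2mKO IgG1, Jak1KO IgG1 and WT IgG1) held 5 libraries each. The mutations were in the injected cells and not in the host, and every mouse carried a tumour and received an antibody. The labels do not give the number of clones behind each mutant line, so the effect of a mutation and a difference between cell lines cannot be told apart.

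ADAMTS proteins are secreted zinc metalloproteases that carry thrombospondin repeats, through which they bind the extracellular matrix. They are made as inactive precursors, are activated by furin-like convertases, are held in check by the tissue inhibitor TIMP3 and are taken up by cells through the receptor LRP1. In tumours they are known for cutting the proteoglycan versican, for processing collagen and for effects on blood vessels.

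Total counts per library were between 17629795 and 25944701. B2m averaged 749 ± 160.3 CPM (read counts scaled to a common library size with TMM factors; SD, n = 5) in B2mKO aPD1 tumours, against 4572 ± 728 in WT aPD1 tumours. Jak1 averaged 72.4 ± 6.99 CPM in Jak1KO aPD1 tumours, against 239 ± 6.09 in WT aPD1 tumours, and under IgG1 each gene was likewise lowest in its own mutant. The epithelial markers of a colon carcinoma were low in every group: 8 such genes summed to between 2.03 and 31.3 CPM in a library, and the intestinal factor Cdx2 had no count in any library. In 2 libraries (WT IgG1 replicate 3 and B2mKO aPD1 replicate 2) the profile stood apart from the rest of its group, with a mean correlation of 0.954 and 0.953 with the other 4 libraries, against 0.971 to 0.988 elsewhere. Of the 9 genes, 7 had the lowest value of their group in the first of these and 8 in the second. The labels do not say that libraries of a group came from different mice, so every p-value speaks of the spread among these libraries, which may be technical. In bulk tissue, fewer cells of a type and less RNA per cell cannot be told apart.

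Per length of exon, Adamts14 and Adamts1 had the highest transcript levels of the 9 genes and Adamts16 the lowest. Over the 30 libraries Adamts14, which removes the amino-terminal propeptide of procollagens, averaged 23.3 ± 5.14 RPKM (CPM per kilobase of exon; SD). Adamts1, a versican and aggrecan protease, averaged 21.8 ± 11.9 RPKM, and Adamts4, an aggrecanase, 12.2 ± 4.30 RPKM. Adamts12, Adamts7, Adamts5 and Adamts10 lay between 2.46 and 4.08 RPKM. Adamts8 averaged 0.714 ± 0.735 RPKM, with a spread as large as its mean. Adamts16 averaged 0.0399 ± 0.0491 RPKM, had 174 counts in all libraries together and none in 7 of them. All 9 genes passed the filter on low counts. Of the other 10 ADAMTS genes, 4 passed it (Adamts2, Adamts6, Adamts9 and Adamts15), and Adamts3, Adamts13, Adamts17, Adamts18, Adamts19 and Adamts20 did not, with at most 0.557 CPM in any library.

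**Figure D1:**
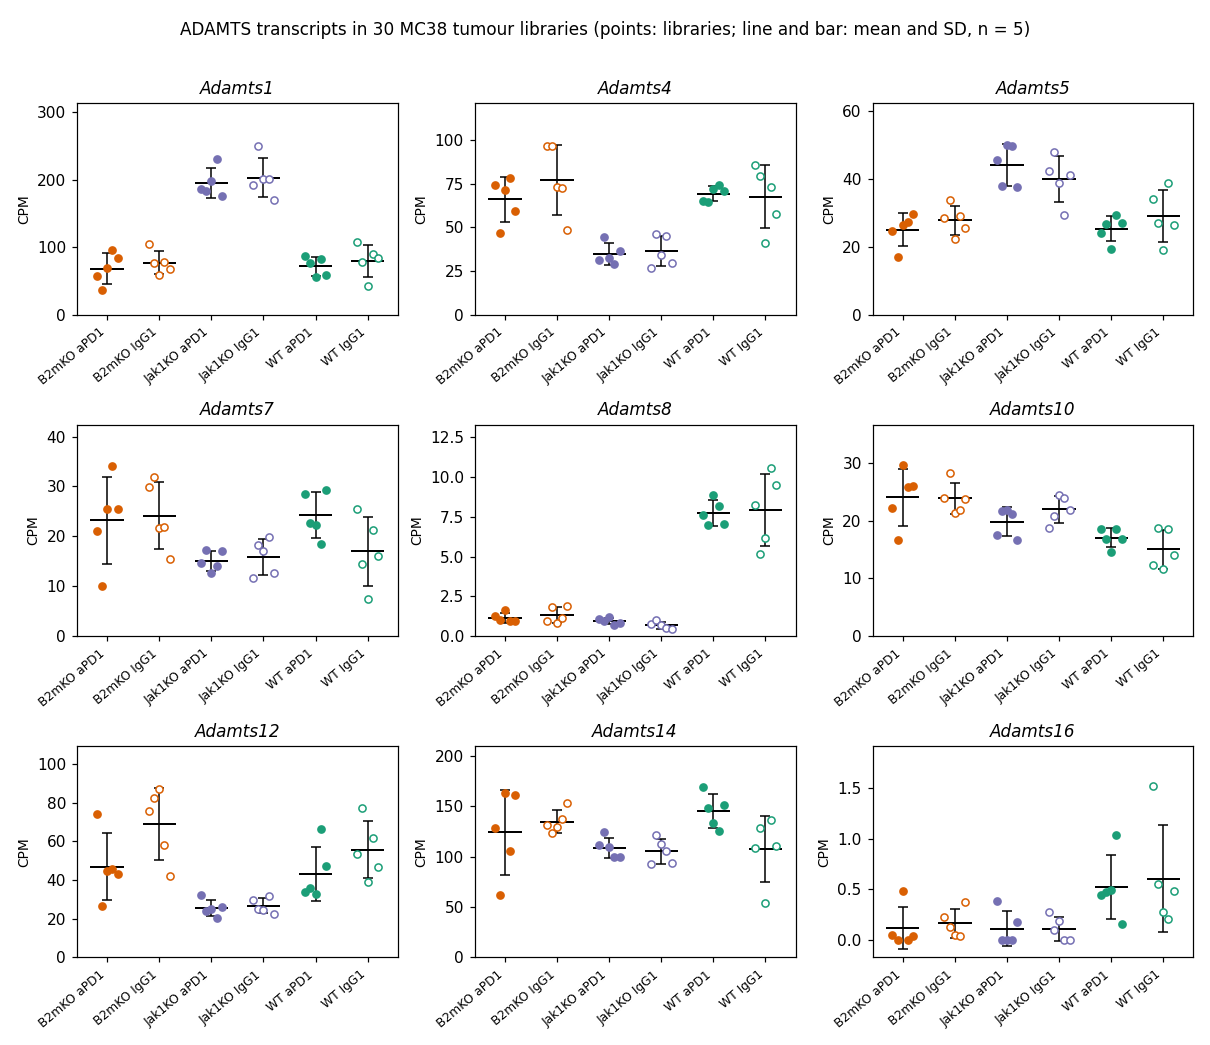
Levels of the 9 ADAMTS transcripts in CPM (linear axis from 0, or from just below it for Adamts16, with its own scale for each gene) in each of the 30 libraries, by group; filled points are aPD1 libraries, open points IgG1 libraries, and the line and bar are mean and SD (n = 5). The Jak1KO points for Adamts1 lie at 169.8 CPM or more, above all others, and all B2mKO and Jak1KO points for Adamts8 lie under 2 CPM.

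The first question was which of these genes differed between mutant and WT tumours given the same antibody. In Jak1KO tumours, Adamts1 was higher and Adamts4, Adamts8 and Adamts12 were lower than in WT tumours under either antibody. In B2mKO tumours Adamts8 was lower and Adamts10 higher under either antibody. A gene was called when its edgeR quasi-likelihood p, adjusted over all 15505 genes tested, was under 0.05. In B2mKO against WT tumours, 2 of 9 genes were called under aPD1 (1 higher, 1 lower), where 20.4% of all genes were called (9.87% higher, 10.5% lower). Under IgG1 3 of 9 were (1 higher, 2 lower), against 21.2% of all genes (9.42% higher, 11.7% lower). In Jak1KO against WT tumours, 5 of 9 were called under aPD1 (2 higher, 3 lower), against 20.8% of all genes (8.40% higher, 12.4% lower). Under IgG1 6 of 9 were (2 higher, 4 lower), against 18.3% of all genes (7.27% higher, 11.0% lower). The B2mKO counts are near the share of all genes, and the Jak1KO counts are above it. The list was drawn up with earlier results of these data known, so that excess is not a result about ADAMTS genes as a family. Of the 4 other ADAMTS genes tested, none was called in Jak1KO against WT tumours under either antibody. The median log2 fold change of the 9 genes was -0.07 under aPD1 and 0.20 under IgG1 for B2mKO, and -0.68 and -0.10 for Jak1KO, against medians over all genes between -0.003 and 0.02. The WT groups are shared between these comparisons, so the B2mKO and Jak1KO values are not independent of each other. Without both libraries that stood apart, the number called in Jak1KO against WT tumours under aPD1 was 8 in place of 5, while the number over all genes was 5298 of 15678 in place of 3218 of 15505.

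**Figure D2:**
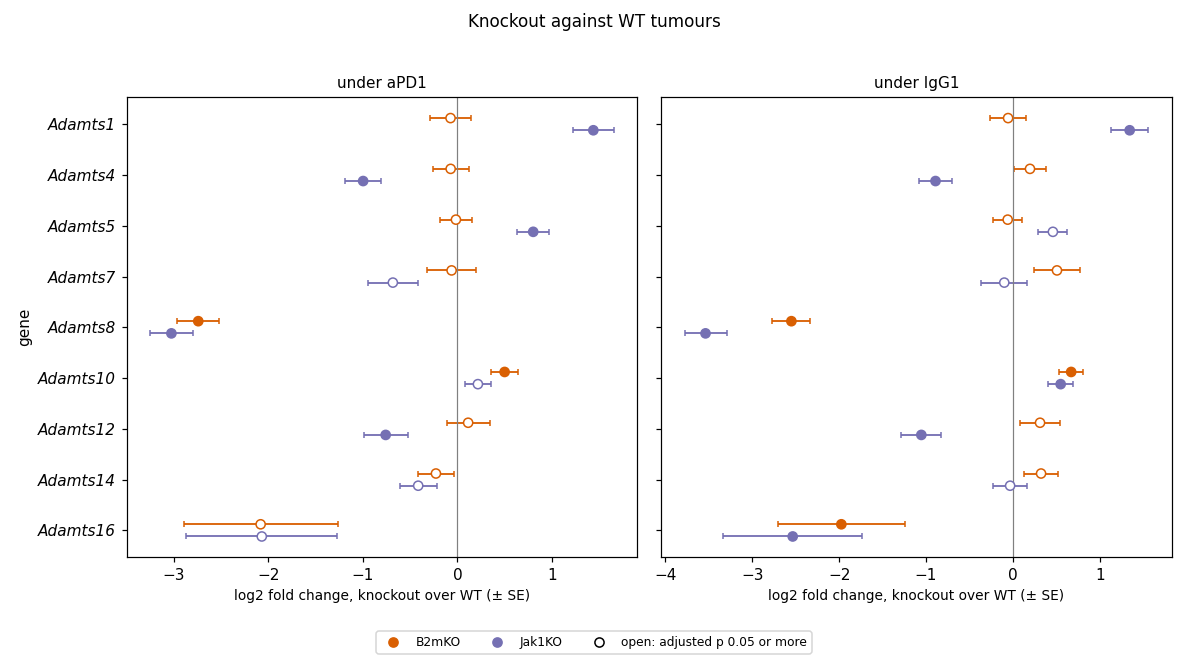
Log2 fold change of B2mKO (orange) and Jak1KO (purple) over WT tumours for each gene, under aPD1 (left panel) and under IgG1 (right panel), with SE from the edgeR fit; filled points have an adjusted p under 0.05. Adamts8 lies at -2.55 or lower in all 4 comparisons, and Adamts1 lies above 1.3 in Jak1KO and near 0 in B2mKO tumours.

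JAK1 signals through STAT factors, so the promoters were searched for their site. RefSeq windows (GRCm38.p6) of the 250 bases before the start were at hand for 3 of the 9 genes. They stand for a gene that was higher in Jak1KO tumours (Adamts1, chr16:85803114-85803363, minus strand), one that was lower (Adamts12, chr15:11064523-11064772, plus strand) and one that was not called in the fit of all libraries (Adamts14, chr10:61273420-61273669, minus strand). Each is written 5′ to 3′ on the strand of its gene, and capitals mark GC boxes and a TATA box. The start is that of RefSeq, and for Adamts12 and Adamts14 it is not the start of the gene span given below.
Adamts1: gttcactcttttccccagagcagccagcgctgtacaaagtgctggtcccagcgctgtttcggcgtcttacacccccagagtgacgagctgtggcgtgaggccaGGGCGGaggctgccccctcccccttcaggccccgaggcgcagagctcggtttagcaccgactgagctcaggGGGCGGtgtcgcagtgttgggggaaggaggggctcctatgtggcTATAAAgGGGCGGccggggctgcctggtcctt
Adamts12: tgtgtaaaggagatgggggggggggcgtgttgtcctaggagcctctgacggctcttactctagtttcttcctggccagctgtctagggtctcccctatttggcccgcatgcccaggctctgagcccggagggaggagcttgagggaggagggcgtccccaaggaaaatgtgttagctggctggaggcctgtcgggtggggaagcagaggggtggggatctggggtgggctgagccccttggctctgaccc
Adamts14: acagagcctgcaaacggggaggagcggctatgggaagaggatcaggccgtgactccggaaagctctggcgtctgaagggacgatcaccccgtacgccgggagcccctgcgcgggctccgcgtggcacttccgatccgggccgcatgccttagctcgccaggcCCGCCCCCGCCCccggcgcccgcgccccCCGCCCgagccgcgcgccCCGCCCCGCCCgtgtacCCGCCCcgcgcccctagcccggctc

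Searched on both strands, none of these 3 windows held the STAT site TTCNNNGAA, which 7.02% of 32851 such windows held, the core of the interferon-stimulated response element (2.98%) or the AP-1 site TGANTCA (6.75%), which says only that these letters are not in these windows. The GC box GGGCGG, found in 32.7% of windows, matched 3 times in Adamts1, 6 times in Adamts14 (some matches overlap) and not in Adamts12. The TATA box TATAAA, found in 12.4% of windows, matched once, in Adamts1, 32 bases before the start at its first base (position -32). The windows were 65.6%, 63.2% and 76.4% G and C in Adamts1, Adamts12 and Adamts14, against a median of 52.4% over all windows.

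Among the proteases that cut aggrecan and versican, Adamts1 was the one that was higher in Jak1KO tumours by the widest margin. It had 186, 183, 198, 231 and 176 CPM in Jak1KO aPD1 tumours, against 86.7, 76.6, 56.2, 81.9 and 58.0 CPM in WT aPD1 tumours. It had 193, 250.1, 201, 201 and 169.8 CPM in Jak1KO IgG1 tumours, against 107, 77.3, 42.3, 89.8 and 83.2 CPM in WT IgG1 tumours. All 10 Jak1KO libraries lay above all other libraries. The log2 fold change over WT was 1.44 ± 0.22 (SE) under aPD1 (edgeR adjusted p = 1.37e-05) and 1.34 ± 0.21 under IgG1 (edgeR adjusted p = 4.28e-05). In B2mKO tumours Adamts1 was between 35.9 and 95.2 CPM under aPD1 and between 58.5 and 105 CPM under IgG1, inside or next to the WT range, and it was not called (log2 fold changes of -0.07 ± 0.21 and -0.06 ± 0.21).

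Adamts5, the main aggrecanase of mouse cartilage, lies beside Adamts1 on chromosome 16 (GRCm38). Adamts1 spans 85793827 to 85803113 and Adamts5 spans 85856173 to 85901828, both on the minus strand, with 53059 bases between them. Adamts5 had 45.6, 37.8, 50.1, 49.8 and 37.6 CPM in Jak1KO aPD1 tumours, against 24.1, 26.8, 19.5, 29.3 and 27.0 CPM in WT aPD1 tumours. It had 42.4, 48.2, 38.8, 29.4 and 41.2 CPM in Jak1KO IgG1 tumours, against 34.0, 27.1, 18.9, 38.8 and 26.5 CPM in WT IgG1 tumours. The groups were apart under aPD1 and overlapped under IgG1. Its log2 fold change was 0.80 ± 0.17 under aPD1 (edgeR adjusted p = 0.000768) and 0.46 ± 0.17 under IgG1 (edgeR adjusted p = 0.053, not called). The IgG1 value was called without WT IgG1 replicate 1 (0.52, edgeR adjusted p = 0.0433), WT IgG1 replicate 4 (0.58, edgeR adjusted p = 0.0159) or Jak1KO IgG1 replicate 4 (0.55, edgeR adjusted p = 0.0247). In B2mKO tumours Adamts5 was not called (-0.02 ± 0.17 under aPD1 and -0.06 ± 0.17 under IgG1). Cyyr1, the one other tested gene within 500 kb of the pair, was not called in Jak1KO tumours (0.04 ± 0.31 under aPD1 and 0.46 ± 0.31 under IgG1).

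Adamts4, the aggrecanase on chromosome 1 (171250421 to 171260637, plus strand), was lower in Jak1KO tumours. It had 31.2, 44.4, 32.4, 29.0 and 36.7 CPM in Jak1KO aPD1 tumours, against 64.8, 64.6, 72.1, 74.2 and 71.1 CPM in WT aPD1 tumours. It had 26.8, 46.3, 34.2, 44.8 and 29.8 CPM in Jak1KO IgG1 tumours, against 85.8, 79.6, 41.2, 73.3 and 57.4 CPM in WT IgG1 tumours. The lowest WT IgG1 value, in the library that stood apart, was the one that fell inside the Jak1KO range. The fitted log2 fold change was -0.998 ± 0.192 under aPD1 (edgeR adjusted p = 0.000344) and -0.89 ± 0.19 under IgG1 (edgeR adjusted p = 0.00141). In B2mKO tumours it was not called (-0.07 ± 0.19 under aPD1 and 0.20 ± 0.19 under IgG1).

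Adamts8, a weaker proteoglycan protease that is also known to restrain blood vessel growth, had the largest fold changes of the 9 genes between mutant and WT tumours. It lies on chromosome 9 (30942562 to 30963838, plus strand). Under aPD1 it had 1.24, 0.980, 1.66, 0.972 and 0.916 CPM in B2mKO tumours and 1.07, 0.940, 1.18, 0.678 and 0.825 CPM in Jak1KO tumours, against 7.61, 6.96, 8.87, 8.15 and 7.05 CPM in WT tumours. Under IgG1 it had 0.974, 1.86, 0.844, 1.15 and 1.89 CPM in B2mKO tumours and 0.766, 0.999, 0.705, 0.508 and 0.460 CPM in Jak1KO tumours, against 8.23, 5.15, 6.17, 10.6 and 9.49 CPM in WT tumours. Every mutant library lay below every WT library. For B2mKO over WT the log2 fold change was -2.74 ± 0.22 under aPD1 (edgeR adjusted p = 6.41e-10) and -2.55 ± 0.22 under IgG1 (edgeR adjusted p = 1.32e-09). For Jak1KO over WT it was -3.03 ± 0.23 under aPD1 (edgeR adjusted p = 1.37e-10) and -3.54 ± 0.24 under IgG1 (edgeR adjusted p = 1.54e-11). These levels rest on 118 and 147 counts in all in the B2mKO aPD1 and IgG1 groups and on 104 and 71 in the Jak1KO groups, against 832 and 820 in the WT groups.

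None of the tested genes around Adamts8 was called lower in either mutant under IgG1, which does not show that these genes were unchanged. Within 500 kb, 7 other genes were tested (Snx19, Adamts15, Zbtb44, St14, Aplp2, Prdm10 and Nfrkb), and under IgG1 none was called lower in either mutant, while Aplp2 was called higher in B2mKO (0.37 ± 0.07, edgeR adjusted p = 0.000259) and in Jak1KO tumours (0.22 ± 0.07, edgeR adjusted p = 0.0241). Under aPD1 the membrane protease gene St14 was called lower in B2mKO (-1.10 ± 0.38, edgeR adjusted p = 0.0406) and in Jak1KO tumours (-1.04 ± 0.38, edgeR adjusted p = 0.0487), and Zbtb44 was called lower in B2mKO tumours (-0.32 ± 0.11, edgeR adjusted p = 0.0361), where Aplp2 was again called higher (0.30 ± 0.07, edgeR adjusted p = 0.0017). Adamts15, the ADAMTS gene next to Adamts8, had log2 fold changes of -0.81 ± 0.78 in B2mKO and -0.51 ± 0.74 in Jak1KO under aPD1, and of -1.05 ± 0.86 and -0.06 ± 0.75 under IgG1, none called. A predicted gene on the other strand (Gm29724) shares 10.6% of the exon bases of Adamts8 but had 25 counts in all libraries together.

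Adamts7 and Adamts12 both cut cartilage oligomeric matrix protein. Adamts12 (chromosome 15, 11064790 to 11349231, plus strand) was lower in Jak1KO tumours, with 32.1, 23.8, 25.3, 20.6 and 26.1 CPM in Jak1KO aPD1 tumours, against 34.0, 36.1, 33.0, 66.3 and 47.3 CPM in WT aPD1 tumours. It had 29.9, 25.1, 24.6, 31.8 and 22.5 CPM in Jak1KO IgG1 tumours, against 53.3, 77.3, 38.8, 61.7 and 47.0 CPM in WT IgG1 tumours. The groups did not overlap under either antibody, but under aPD1 they nearly touched, at 32.1 and 33.0 CPM. The log2 fold change was -0.76 ± 0.23 under aPD1 (edgeR adjusted p = 0.0186) and -1.05 ± 0.23 under IgG1 (edgeR adjusted p = 0.00172). The aPD1 value was not called without WT aPD1 replicate 4 (-0.56, edgeR adjusted p = 0.0839) or without Jak1KO aPD1 replicate 4 (-0.69, edgeR adjusted p = 0.0583). In B2mKO tumours Adamts12 was not called (0.11 ± 0.23 under aPD1 and 0.31 ± 0.23 under IgG1).

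Adamts7 (chromosome 9, 90163069 to 90208071, plus strand) had 14.6, 17.2, 12.7, 13.9 and 17.0 CPM in Jak1KO aPD1 tumours, against 28.4, 22.7, 22.2, 18.5 and 29.3 CPM in WT aPD1 tumours. The groups did not overlap, but the log2 fold change of -0.68 ± 0.27 was not called (edgeR adjusted p = 0.0671). It was called without WT aPD1 replicate 4 (-0.77, edgeR adjusted p = 0.0498) and without both libraries that stood apart, neither of which is in this comparison (-0.70, edgeR adjusted p = 0.00527). A fit of the 2 groups alone gave -0.69 (edgeR adjusted p = 0.00286). Under IgG1 Adamts7 was between 11.7 and 19.9 CPM in Jak1KO tumours and between 7.39 and 25.5 CPM in WT tumours, and was not called (-0.10 ± 0.27). In B2mKO tumours its log2 fold changes were -0.06 ± 0.26 under aPD1 and 0.51 ± 0.26 under IgG1, neither called. Counting ignored strand, and Tbc1d2b on the other strand shares 1.94% of the exon bases of Adamts7.

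Adamts14, the procollagen protease on chromosome 10 (61197112 to 61273438, minus strand), was between 100.0 and 124 CPM in Jak1KO aPD1 tumours, against 125 to 169 CPM in WT aPD1 tumours. The groups did not overlap, but the log2 fold change of -0.42 ± 0.19 was not called (edgeR adjusted p = 0.136). It was called without both libraries that stood apart (-0.44, edgeR adjusted p = 0.00231) and with the 2 groups fitted alone (-0.42, edgeR adjusted p = 0.0038). Under IgG1 it was between 92.7 and 122 CPM in Jak1KO tumours and between 53.7 and 136 CPM in WT tumours (-0.03 ± 0.19, not called). In B2mKO tumours it had log2 fold changes of -0.23 ± 0.19 under aPD1 and 0.32 ± 0.19 under IgG1, neither called.

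Adamts10, which binds fibrillin and whose human gene is mutated in a syndrome of short stature and lens defects, was higher in B2mKO tumours. It lies on chromosome 17 (33524204 to 33553782, plus strand). It had 22.3, 16.7, 29.7, 25.9 and 26.1 CPM in B2mKO aPD1 tumours, against 18.6, 16.8, 14.6, 18.6 and 16.9 CPM in WT aPD1 tumours. It had 24.1, 28.4, 21.4, 21.9 and 23.9 CPM in B2mKO IgG1 tumours, against 12.3, 18.7, 11.6, 18.5 and 14.2 CPM in WT IgG1 tumours. The groups were apart under IgG1, and under aPD1 they overlapped through B2mKO replicate 2, the library that stood apart. Its log2 fold change was 0.50 ± 0.14 under aPD1 (edgeR adjusted p = 0.0115) and 0.67 ± 0.14 under IgG1 (edgeR adjusted p = 0.00115). In Jak1KO tumours Adamts10 was between 16.7 and 21.9 CPM under aPD1 (0.22 ± 0.14, edgeR adjusted p = 0.30, not called) and between 18.8 and 24.5 CPM under IgG1, above the highest WT IgG1 value of 18.7 CPM (0.55 ± 0.14, edgeR adjusted p = 0.00667).

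Adamts16, known from rats for effects on blood pressure and testis development, was close to the limit of detection. It lies on chromosome 13 (70727802 to 70841811, minus strand). It had 12 counts in all in B2mKO aPD1, 13 in Jak1KO aPD1, 17 in B2mKO IgG1 and 11 in Jak1KO IgG1 tumours, against 55 in WT aPD1 and 66 in WT IgG1 tumours. Under IgG1 it had 0.229, 0.130, 0.0469, 0.0397 and 0.378 CPM in B2mKO tumours and 0.274, 0.0999, 0.188, 0 and 0 CPM in Jak1KO tumours, against 1.52, 0.553, 0.278, 0.206 and 0.484 CPM in WT tumours. The groups overlapped, and 1 WT library was well above the rest. The fitted log2 fold change was -1.98 ± 0.73 in B2mKO (edgeR adjusted p = 0.0496) and -2.53 ± 0.80 in Jak1KO tumours (edgeR adjusted p = 0.0237). Without WT IgG1 replicate 1 neither was called (-1.25, edgeR adjusted p = 0.283, and -1.81, edgeR adjusted p = 0.155). Under aPD1 the log2 fold changes of -2.08 ± 0.82 in B2mKO and -2.07 ± 0.80 in Jak1KO tumours were not called (edgeR adjusted p = 0.0672 and 0.0619). They were called without WT aPD1 replicate 5 (-2.35, edgeR adjusted p = 0.0426, and -2.33, edgeR adjusted p = 0.0388). Leaving out B2mKO aPD1 replicate 3 gave -4.11 (edgeR adjusted p = 0.00609) for B2mKO, and leaving out Jak1KO aPD1 replicate 1 gave -3.32 (edgeR adjusted p = 0.0156) for Jak1KO. The IgG1 call for B2mKO was also lost without WT IgG1 replicate 2 (-2.02, edgeR adjusted p = 0.0571) or 5 (-2.07, edgeR adjusted p = 0.06) and without any one of B2mKO IgG1 replicates 1 to 4 (edgeR adjusted p between 0.0677 and 0.126). The IgG1 call for Jak1KO was also lost without Jak1KO IgG1 replicate 4 (-2.22, edgeR adjusted p = 0.0645) or 5 (-2.18, edgeR adjusted p = 0.07).

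The next question was where the mutant lines differed from each other. Adamts4 and Adamts12 were higher, and Adamts1 and Adamts5 lower, in B2mKO than in Jak1KO tumours under either antibody. Under aPD1, 4 of 9 genes were called (2 higher, 2 lower), against 28.8% of all genes (15.1% higher, 13.7% lower). Under IgG1 5 of 9 were (3 higher, 2 lower), against 28.6% of all genes (14.6% higher, 14.1% lower). The log2 fold changes of B2mKO over Jak1KO under aPD1 were 0.93 ± 0.19 for Adamts4, 0.87 ± 0.23 for Adamts12, -1.51 ± 0.22 for Adamts1 and -0.82 ± 0.17 for Adamts5, with edgeR adjusted p-values of 0.00511 or lower. Under IgG1 they were 1.09 ± 0.19 for Adamts4, 1.37 ± 0.23 for Adamts12, -1.40 ± 0.21 for Adamts1 and -0.52 ± 0.17 for Adamts5 (edgeR adjusted p = 0.0185 for the last). Under IgG1 Adamts12 had 75.6, 82.5, 87.1, 57.9 and 42.0 CPM in B2mKO tumours, all above the highest Jak1KO value of 31.8 CPM. Under aPD1 it had 74.4, 26.7, 44.5, 45.6 and 43.3 CPM in B2mKO tumours, where replicate 2 alone fell inside the Jak1KO range of 20.6 to 32.1 CPM.

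Adamts8, low in both mutants, was higher in B2mKO than in Jak1KO tumours under IgG1 (0.99 ± 0.28, edgeR adjusted p = 0.00881), with overlapping ranges, and was not called under aPD1 (0.28 ± 0.27, edgeR adjusted p = 0.469). The IgG1 call for Adamts5 was lost without B2mKO IgG1 replicate 3 (-0.45, edgeR adjusted p = 0.0562) or Jak1KO IgG1 replicate 2 (-0.45, edgeR adjusted p = 0.0595). Without B2mKO aPD1 replicate 2, Adamts7 (0.84, edgeR adjusted p = 0.00921) and Adamts10 (0.42, edgeR adjusted p = 0.0168) were called higher in B2mKO than in Jak1KO tumours under aPD1, against 0.62 ± 0.27 and 0.28 ± 0.14 with all libraries (edgeR adjusted p = 0.0791 and 0.131). Without B2mKO IgG1 replicate 5, Adamts7 was called higher under IgG1 (0.73, edgeR adjusted p = 0.0435), against 0.61 ± 0.27 (edgeR adjusted p = 0.0886) with all libraries. Without both libraries that stood apart, 7 of 9 genes were called under either antibody, Adamts7 and Adamts14 among them. Calls over all genes were then 6082 of 15678 under aPD1 and 6466 of 15678 under IgG1, in place of 4462 and 4441 of 15505. Adamts16 was not called between the mutants (-0.01 ± 1.07 under aPD1 and 0.56 ± 1.05 under IgG1), nor was Adamts10 under IgG1 (0.12 ± 0.14).

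No ADAMTS gene was called between aPD1 and IgG1 tumours of the same genotype. In WT tumours 0 of 9 were called, where 4.38% of all genes were, and 1 of 9 had an unadjusted edgeR p under 0.05, as did 2800 of all 15505 genes. In B2mKO and Jak1KO tumours 0 of 9 were called, where 0% of all genes were, and 1 and 0 had an unadjusted p under 0.05, as did 516 and 174 of all genes. DESeq2 also called none of the 9 in any genotype. The 2 genes with an unadjusted p under 0.05 were Adamts14 in WT and Adamts12 in B2mKO tumours.

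Adamts14 had 169, 148, 134, 125 and 151 CPM in WT aPD1 tumours, against 109, 129, 53.7, 136 and 110.4 CPM in WT IgG1 tumours. The groups overlapped, and the lowest IgG1 value came from the library that stood apart. The log2 fold change was 0.43 ± 0.19 (unadjusted p = 0.0352, edgeR adjusted p = 0.239). Adamts12 had a log2 fold change of -0.56 ± 0.23 in B2mKO aPD1 against B2mKO IgG1 tumours (unadjusted p = 0.0212, edgeR adjusted p = 0.80), with overlapping values as given above. For Adamts1, Adamts4, Adamts5 and Adamts10 the log2 fold changes of aPD1 over IgG1 lay between -0.23 and 0.18 in the 3 genotypes, with SE of 0.14 to 0.21. Adamts7 had 0.51 ± 0.26 in WT tumours (edgeR adjusted p = 0.307), where aPD1 and IgG1 values overlapped. Adamts8 had -0.04 ± 0.18 in WT tumours, -0.23 ± 0.26 in B2mKO and 0.47 ± 0.30 in Jak1KO tumours. Adamts16 could not be measured closely, with SE between 0.58 and 1.11.

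**Figure D3:**
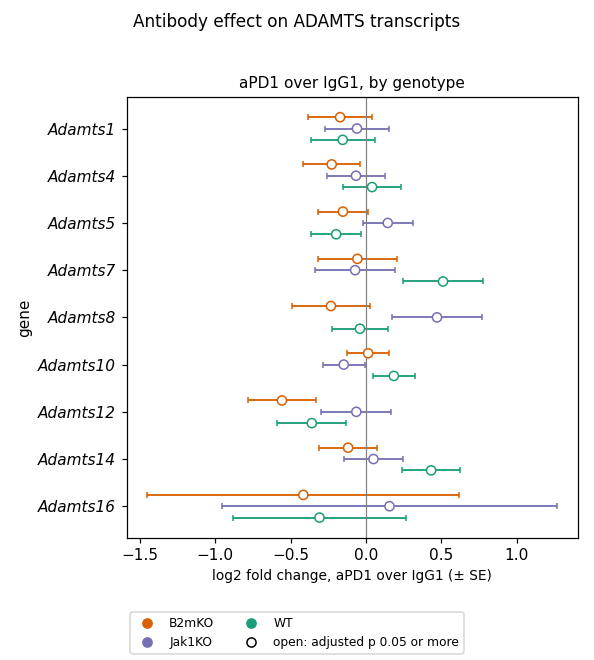
Log2 fold change of aPD1 over IgG1 tumours for each gene in B2mKO (orange), Jak1KO (purple) and WT (green) tumours, with SE from the edgeR fit; open points have an adjusted p of 0.05 or more. All 27 points are open, and the widest bars belong to Adamts16.

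Whether the aPD1 effect differed between genotypes was tested as an interaction, which equally asks whether the difference between a mutant and WT tumours depended on the antibody. No ADAMTS gene was called for B2mKO against WT (0 of 9, where 0.103% of all genes were called) or for Jak1KO against WT (0 of 9, where 0% were). None had an unadjusted edgeR p under 0.05, and DESeq2 called none. The smallest adjusted p among the 9 was 0.306 for B2mKO, for Adamts14 (-0.55 ± 0.28), and 0.698 for Jak1KO, for Adamts10 (-0.33 ± 0.20). So Adamts5 in Jak1KO tumours, called under aPD1 and not under IgG1, was not shown to depend on the antibody (0.34 ± 0.23, edgeR adjusted p = 0.734).

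The rest of the ADAMTS system was followed in 4 lists. Of the other 10 ADAMTS genes, 4 could be tested. Adamts9, a versican protease of blood vessels and the closest relative of Adamts20, was lower in B2mKO tumours (-1.06 ± 0.32 under aPD1, edgeR adjusted p = 0.0186, and -1.33 ± 0.32 under IgG1, edgeR adjusted p = 0.00414), and Adamts6 was higher there under IgG1 (0.78 ± 0.17, edgeR adjusted p = 0.00137). Neither Adamts2 nor Adamts15 was called in any comparison, and in Jak1KO against WT tumours none of the 4 was. Of all genes, 20.4% were called in B2mKO and 20.8% in Jak1KO against WT tumours under aPD1. Under IgG1 these shares were 21.2% and 18.3%, so few or no calls are to be looked for among 4 genes. Of 5 tested ADAMTS-like proteins, which share the matrix-binding repeats without the protease, Adamtsl2 was higher under aPD1 in B2mKO (1.46 ± 0.46, edgeR adjusted p = 0.025) and in Jak1KO tumours (1.83 ± 0.44, edgeR adjusted p = 0.00298), and Adamtsl5 was higher under IgG1 in B2mKO tumours (0.57 ± 0.16, edgeR adjusted p = 0.0132).

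Of 13 tested substrates, 5 were higher and none lower in B2mKO than in WT tumours under either antibody. Of all genes, 9.87% were higher and 10.5% lower there under aPD1, and 9.42% and 11.7% under IgG1. Col3a1, a fibrillar collagen, rose by a log2 fold change of 1.31 ± 0.26 under aPD1 (edgeR adjusted p = 0.000679) and of 1.23 ± 0.26 under IgG1 (edgeR adjusted p = 0.0014), and Thbs2 and the basement membrane gene Nid1 were also called under both. In Jak1KO tumours 2 substrates were higher and 2 lower under aPD1, and 3 higher and 3 lower under IgG1. Of all genes, 8.40% were higher and 12.4% lower there under aPD1, and 7.27% and 11.0% under IgG1. Nid1 was lower (-1.24 ± 0.22 under aPD1, edgeR adjusted p = 0.000151, and -0.98 ± 0.22 under IgG1, edgeR adjusted p = 0.00233) and its relative Nid2 higher (1.10 ± 0.22 under aPD1, edgeR adjusted p = 0.000488, and 1.03 ± 0.22 under IgG1, edgeR adjusted p = 0.00117), and the proteoglycan Sdc4 was lower under both (-0.98 ± 0.21 and -1.03 ± 0.21). The medians of the 13 substrates were 0.63 and 0.46 in B2mKO and -0.16 and -0.06 in Jak1KO tumours under aPD1 and IgG1.

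Of 11 tested activators, inhibitors and handling genes, 2 were higher and 1 lower in B2mKO tumours under aPD1, and 3 higher and none lower under IgG1. Among all genes, 20.4% were called in either direction under aPD1 and 21.2% under IgG1. Timp3, the main inhibitor of Adamts4 and Adamts5, was lower under aPD1 in both mutants. It averaged 10.2 ± 4.24 CPM in B2mKO aPD1 and 9.40 ± 5.01 CPM in Jak1KO aPD1 tumours, against 28.1 ± 6.95 CPM in WT aPD1 tumours (log2 fold changes of -1.46 ± 0.32, edgeR adjusted p = 0.00155, and -1.57 ± 0.32, edgeR adjusted p = 0.000633). Timp1 was higher in B2mKO tumours (0.83 ± 0.14 under aPD1, edgeR adjusted p = 0.000115, and 0.72 ± 0.14 under IgG1, edgeR adjusted p = 0.000616). In Jak1KO tumours none of the 11 was higher, 2 were lower under aPD1 (Timp3 and Timp2) and 3 under IgG1 (Timp2, Timp1 and Pofut2, which glycosylates thrombospondin repeats). The share of all genes called lower there was 12.4% under aPD1 and 11.0% under IgG1. No gene of the 4 lists was called between aPD1 and IgG1 tumours of one genotype or in either interaction.

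Markers of other cells moved with genotype too, and a few with the antibody in WT tumours. There 2 of 7 macrophage and monocyte genes were called higher under aPD1 than under IgG1 (Itgam 1.03 and Cd68 0.61). So were 1 of 3 tested neutrophil genes (Csf3r 1.69) and 1 of 5 tested epithelial genes (Cdh1 1.26). The median log2 fold change was 0.61 for the 7 macrophage and monocyte genes and 2.95 for the 5 epithelial genes. For the 3 neutrophil genes it was -0.02, so Csf3r does not stand for its list. No gene of these lists was called lower, and 4.38% of all genes were called. Of 8 fibroblast markers, 4 were higher and none lower in B2mKO than in WT tumours under aPD1, and 5 and none under IgG1. In Jak1KO tumours 3 were higher and 1 lower under aPD1, and none higher and 2 lower under IgG1. The median log2 fold change of the 8 in Jak1KO tumours was 0.56 under aPD1 and 0.42 under IgG1. The genes called lower there thus went against the median of their list. Summed over the list, the fibroblast markers had 3261 to 4968 CPM in B2mKO aPD1, 3003 to 3415 in Jak1KO aPD1 and 2335 to 3257 in WT aPD1 libraries. Under IgG1 the sums were 3308 to 6330 CPM in B2mKO, 2834 to 3561 in Jak1KO and 2660 to 3534 in WT libraries. None of the 8 was at 0 in all libraries. Among all genes, 9.87% were higher and 10.5% lower in B2mKO than in WT tumours under aPD1, and 9.42% and 11.7% under IgG1. For Jak1KO these shares were 8.40% and 12.4% under aPD1, and 7.27% and 11.0% under IgG1. Of 7 endothelial markers, 5 were higher in B2mKO than in WT tumours under aPD1 and none under IgG1, while in Jak1KO tumours 1 was lower under aPD1 and 2 under IgG1. Their sums were 109.6 to 219 CPM in B2mKO aPD1, 80.0 to 113 in Jak1KO aPD1 and 98.0 to 151 in WT aPD1 libraries, and 123 to 189 in B2mKO IgG1, 89.1 to 139 in Jak1KO IgG1 and 75.5 to 144 in WT IgG1 libraries. Of the other marker lists, under aPD1 B2mKO tumours had 1 of 7 macrophage and monocyte genes called higher than WT tumours. In Jak1KO tumours 1 was higher and 1 lower under aPD1, and 1 was higher under IgG1. The median log2 fold changes of the 7 genes in these comparisons were -0.10, -0.61 and 0.18, in the same order. In Jak1KO tumours the T cell genes Cd4 (1.74 ± 0.36, edgeR adjusted p = 0.000981) and Cd3e (1.80 ± 0.63, edgeR adjusted p = 0.046) and the neutrophil gene Csf3r (1.13 ± 0.33, edgeR adjusted p = 0.0177) were higher under IgG1. Csf3r was 1 of 3 tested neutrophil genes, whose median log2 fold change there was -1.19, the other way, with none called lower. The T cell genes were 2 of 5 tested. The keratinocyte gene Krt14 was lower in B2mKO tumours (-4.74 ± 0.61 under aPD1 and -2.98 ± 0.58 under IgG1) and in Jak1KO tumours (-1.94 ± 0.41 under aPD1 and -1.40 ± 0.47 under IgG1), with edgeR adjusted p-values of 0.0324 or lower. Of the epithelial genes, Cdh1 was lower in Jak1KO tumours under aPD1 (-2.05 ± 0.30, edgeR adjusted p = 1.04e-05) and Epcam higher in B2mKO tumours under IgG1 (3.04 ± 1.13, edgeR adjusted p = 0.0494). Summed skeletal muscle markers varied within groups, between 1.13 and 763 CPM over all libraries. The part of these cells in the ADAMTS differences was not tested.

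Within groups, several of the genes varied together from library to library. Over the 30 deviations of log2 CPM from the group mean, Pearson's r was 0.80 for Adamts4 and Adamts7, 0.76 for Adamts1 and Adamts7, 0.74 for the neighbours Adamts1 and Adamts5, 0.68 for Adamts10 and Adamts14, and 0.66 for Adamts7 and Adamts14. Without both libraries that stood apart (28 left), these were 0.71, 0.46, 0.52, 0.40 and 0.03. For Adamts4 and Adamts12 r was 0.59 with all libraries and 0.45 without those 2, and for Adamts8 and Adamts16 it was 0.42 and 0.39. Adamts8 had no r above 0.42 with any other of the 9 genes. All values of a library share its scaling.

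**Figure D4:**
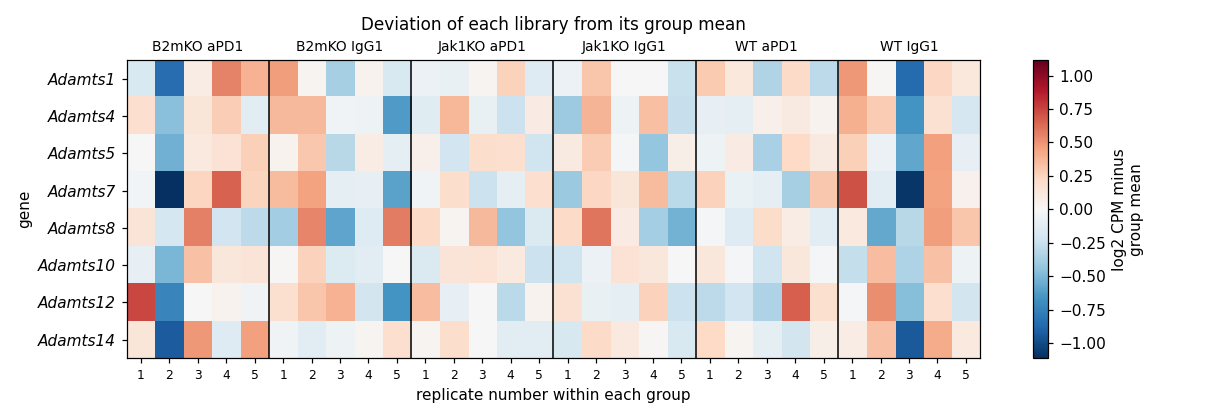
Deviation of log2 CPM from the group mean in each library (columns, by group and replicate number) for 8 genes (rows); red is above and blue below the mean of the group, and Adamts16 is left out because it is at 0 in 7 libraries. The blue columns are B2mKO aPD1 replicate 2 and WT IgG1 replicate 3.

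The genes most like each member were found by the same within-group r, with the value without the 2 libraries given second. For Adamts1 the highest was Itprid2 (0.88 and 0.73), for Adamts4 Vps39 (0.88 and 0.83), for Adamts5 Hivep2 (0.86 and 0.78) and for Adamts7 Lrig3 (0.92 and 0.81). For Adamts10 it was Gripap1 (0.88 and 0.81), for Adamts12 Mdga1 (0.84 and 0.79) and for Adamts14 Hdac6 (0.93 and 0.69). The next closest to Adamts5 were Samd4 and Il6st, and the next closest to Adamts12 were Adgrl3 and Pxdn, a matrix peroxidase. Adamts8 had no close match, with Sap30l at 0.58. For Adamts16 the 3 closest were the matrix genes Loxl2 (0.72 and 0.78), Thbs4 (0.60 and 0.59) and Col1a2 (0.60 and 0.64), but its values rest on few counts.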

How the data were processed

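The 30 tumour RNA libraries were sequenced from paired ends, per the labels' protocols. The deposited values are raw read counts per gene. Per the file headers, featureCounts (version 2.0.0) assigned reads to GRCm38 genes of Ensembl (release 99), ignored strand, dropped multiply mapped reads and counted each end as a read. The submitters' processing notes also name mm10, edgeR 3.24.3, STAR 2.5.2a, FastQC 0.11.2 and Cufflinks 2.2.1. The 30 per-sample tables equal the table of the series, and the header of 1 (WT aPD1 replicate 2) names another alignment file. No library was a copy of another: chi-square values over degrees of freedom were 6.5 to 205.8 in the 60 replicate pairs.

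Groups came from the labels, and symbols were matched on Ensembl identifiers (55144 of 55471). In R 4.3.3 with edgeR 4.0.16, filterByExpr (minimum count 10, minimum total 15) left 15505 genes. TMM factors ran from 0.939 to 1.04. A quasi-likelihood model with 6 group means was fitted to the 30 libraries, with Benjamini-Hochberg adjustment over all genes and a threshold of 0.05. SE is the absolute log2 fold change over the square root of F, and RPKM uses the exon length in the deposited tables. The procedure was tested on simulated data. Alternatives were another scaling, no filter, DESeq2 1.42.0, the compared groups alone, a replicate block, and leaving out each library or both that stood apart.

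The genes and lists were chosen with earlier results of these data known. By the rule for named genes, all 9 genes were followed in every comparison (the interactions by count and smallest p), and from each list mainly the called genes with the smallest p. The most similar genes had a mean of at least 5 CPM and excluded predicted genes. The labels do not say that replicate numbers pair the libraries, and the main fit did not pair them.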

Additional observations from a re-analysis of the deposited data

Results flagged for a closer look

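In 2 of the 54 sets of 5 libraries (9 genes in 6 groups), 1 library lay far from the other 4 by Dixon's test. Chance gives about 1 in 20 such sets. Adamts16 had 1.52 CPM in WT IgG1 replicate 1, where the other 4 had 0.206 to 0.553 CPM, and 0.488 CPM in B2mKO aPD1 replicate 3, where the other 4 had 0 to 0.0541 CPM. Adamts16 was the least abundant of the 9 genes, with 66 counts in WT IgG1 and 12 in B2mKO aPD1 tumours in all.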

How the results depend on the processing

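Of 25 calls of the 9 genes over all comparisons, 21 were kept in every alternative run, and no fold change that was called in any setting turned its direction. Counts of called genes moved by over 1.5 times in 2 cases, both without both libraries that stand apart: 8 in place of 5 in Jak1KO against WT tumours under aPD1, and 7 in place of 4 in B2mKO against Jak1KO tumours under aPD1. Over all genes, calls there were 5298 in place of 3218 and 6082 in place of 4462. Leaving out 1 library at a time gave 4 to 6 in each of these, 5 to 7 in Jak1KO against WT under IgG1, 4 to 6 in B2mKO against Jak1KO under IgG1 and 2 to 3 in B2mKO against WT under either antibody. Over all genes, calls in these runs were 2434 to 3308 in Jak1KO against WT under aPD1 and 2255 to 3019 under IgG1. They were 3731 to 4631 and 3669 to 4423 in B2mKO against Jak1KO, and 2418 to 3321 and 2322 to 3944 in B2mKO against WT, in the same order. Calls between aPD1 and IgG1 tumours and in the interactions were 0 in every alternative.

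Of 75 same-numbered pairs of libraries, 25 had an r over 0.1 between their deviations, with r from -0.587 to 0.464. The median r of same-numbered pairs was -0.0038, against -0.0072 for the other pairs, where values over 0.1 were not counted. The labels do not say that the numbers pair the libraries. With a replicate block, 7 of 9 genes were called in Jak1KO against WT tumours under IgG1 (6 without it) and 6 under aPD1 (5 without it). Calls over all 15505 genes fell there, to 2681 from 2839 under IgG1 and to 3064 from 3218 under aPD1. In the same fit 2 of the 9 were called in B2mKO against WT under IgG1 (3 without it), where calls over all genes were 3099 in place of 3280. The other counts of calls among the 9 genes were equal with and without the block.

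Adamts16 had 174 counts in all libraries together. Its call in B2mKO against WT tumours under IgG1 (-1.98) was lost with DESeq2 (-1.90, DESeq2 adjusted p = 0.144), and without the filter (edgeR adjusted p = 0.0819), with the block (edgeR adjusted p = 0.071) and with DESeq2 size factors (edgeR adjusted p = 0.0505). In Jak1KO against WT tumours it was lost with DESeq2 (-2.48, DESeq2 adjusted p = 0.0602). DESeq2 added calls for Adamts7 in Jak1KO against WT tumours under aPD1 (DESeq2 adjusted p = 0.0458) and for Adamts5 under IgG1 (DESeq2 adjusted p = 0.0477). The causes were not tested.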
